A study of Drosophila melanogaster with 4 samples.

Results

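The long right arm of the third chromosome of Drosophila melanogaster, 3R, was examined for trimethylation of lysine 9 of histone H3 (H3K9me3), without its Hox gene complexes and without its distal 200 kb. The members are clusters, stretches that the authors called significantly enriched in immunoprecipitated (ChIP) DNA. They were chosen by position alone, as clusters on 3R with a midpoint from 1 to 27705053 on FlyBase release 5. Midpoints from 2400001 to 2900000 (the Antennapedia complex, ANT-C) and from 12400001 to 12900000 (the bithorax complex, BX-C) were left out. The rule found 187 of the 3258 clusters of replicate 1 (5.74%) and 218 of the 3287 clusters of replicate 2 (6.63%). It found 431 of the 4060 clusters (10.6%) in the list deposited for both replicates jointly, which is named the combined list in what follows.

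All 4 samples were nuclei of third-instar larvae of Oregon-R, a wild-type stock that the labels describe as kept in population cages. The 2 ChIP libraries were made with an H3K9me3 antibody that the labels call a new lot, and each had an input library of the same number as its background. No list of the 2 input libraries was used here. The sources used here give no read totals, so depth is unknown and coverage has no counting interval. The labels number the replicates without saying whether they came from separate preparations. A standard deviation (SD) here is therefore that of 2 libraries, whose spread may be technical only.

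H3K9me3 is the histone mark of constitutive heterochromatin. In flies it is written mainly by Su(var)3-9 and by Eggless, the fly SETDB1 enzyme, and it is bound by heterochromatin protein 1 (HP1a). It is known for coating the repeat-rich sequence around centromeres, most of chromosome 4 and transposons, while gene-rich arms carry it in scattered islands. The Hox complexes, in contrast, are the classic targets of Polycomb silencing, whose mark is trimethylation of lysine 27 of the same histone. The base 1 end of 3R is its centromere side, and most repeat-rich sequence next to the centromere of this arm was assembled apart from it, as the scaffold 3RHet.

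Clusters covered little of the arm. Over 26.7 Mb they covered 1.66% in replicate 1 and 2.00% in replicate 2 (445 kb and 535 kb), or 1.83% ± 0.240 (SD, n = 2 replicates, as in all such values that follow). The combined list covered 3.83% (1024 kb). There were 7.00 and 8.16 clusters per Mb in replicates 1 and 2, and 16.1 in the combined list. All of this is sparse beside 3RHet, where clusters covered 81.7% in replicate 1 and 83.6% in replicate 2.

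Most members were narrow and had low scores. The score is the authors' own value per cluster on a scale that is not stated, and it serves here to describe and rank clusters. The median width was 1958 bp in replicate 1, with quartiles of 1615.5 and 2344 bp, and 1998.5 bp in replicate 2, with quartiles of 1691 and 2508 bp. The median score was 0.628 in replicate 1 and 0.608 in replicate 2. Scores from 0.4 to 0.6 were held by 70 members of replicate 1 and 90 of replicate 2, and scores from 0.6 to 0.8 by 67 and 61. A score of 1 or more was held by 29 members (15.5%) in replicate 1 and 32 (14.7%) in replicate 2, and a score of 3 or more by 3 and 6.

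Width and score were related in a particular shape. The Spearman correlation of width with score, across clusters and given as a description, was 0.576 in replicate 1 and 0.596 in replicate 2. Members with scores under 1 had median widths of 1903.5 and 1945.5 bp in replicates 1 and 2, and those from 1 to 3 had 2906 and 3086.5 bp. Members with scores of 3 or more were narrow again, between 1501 and 2024 bp in replicate 1 and between 1312 and 2513 bp in replicate 2. Wide members were few: 7 members of 5 kb or more held 15.8% of the covered bases in replicate 1, and 11 held 17.3% in replicate 2.

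**Figure D1:**
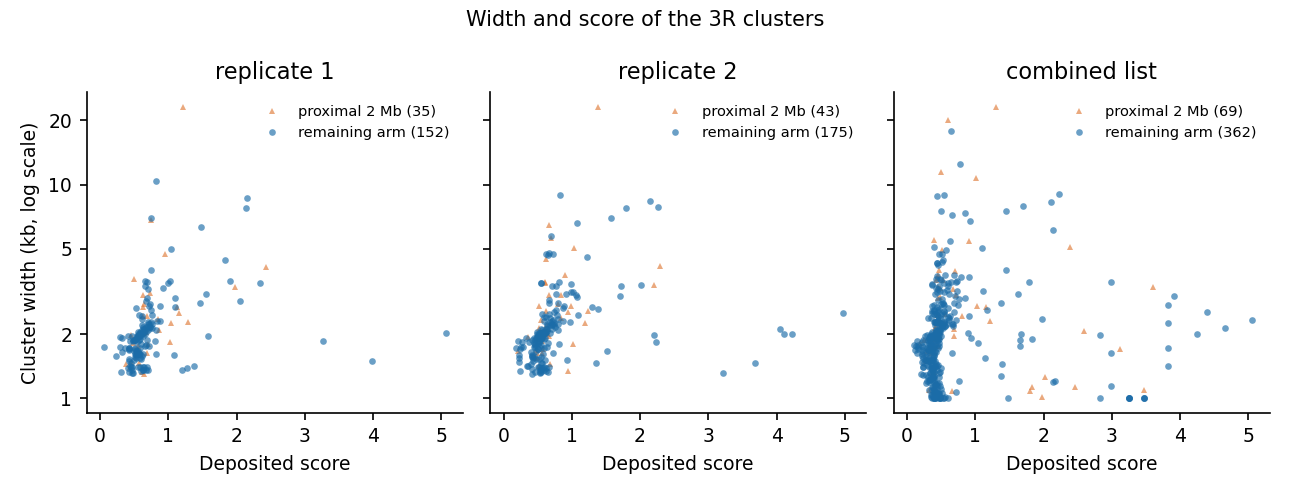
Width in kb on a log scale against the deposited score for every member, with 1 panel per list, triangles for the first 2 Mb and circles for the rest of the arm. Most members sit below a score of 1 at about 2 kb, the widest has a score between 1 and 2 in each list, and the highest scores belong to narrow members.

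The centromere-side first 2 Mb were covered more than the rest of the arm in both replicates. They held 35 of the 187 members in replicate 1 and 43 of 218 in replicate 2. Coverage in the first 2 Mb was 5.29% in replicate 1 and 6.57% in replicate 2, against 1.37% and 1.63% in the rest. The ranges do not overlap. The mean difference was 4.43 percentage points ± 0.718, and the mean of the ratios was 3.94 ± 0.114. An exact two-sided permutation test of 2 against 2 values gave p = 0.333, the smallest it can give. The same 2 libraries supply both windows, so the values are also paired. An exact test that flips the signs of the within-replicate differences gave p = 0.5, its smallest. Neither exact test can pass 0.05 for any comparison of windows or arms here.

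Clusters were also denser in the first 2 Mb, by 2.94-fold ± 0.135. There were 17.5 and 21.5 per Mb in replicates 1 and 2, against 6.15 and 7.08 in the rest. Median width and median score differed much less. Median widths were 2243 and 2200 bp, against 1922.5 and 1967 bp in the rest, a ratio of 1.14 ± 0.0341. Mean widths, which the few wide clusters raise, were 3025 and 3057 bp, against 2228 and 2306 bp. Median scores were 0.677 and 0.633, against 0.614 and 0.595. The difference had the same sign in both replicates and averaged 0.0506 ± 0.0185. No member in the first 2 Mb scored 3 or more in either replicate.

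The rise was held by the first Mb. Its coverage was 8.78% and 11.3% in replicates 1 and 2, with 27 and 36 clusters. The next Mb had 1.81% and 1.79%, with 8 and 7 clusters, against 1.37% and 1.63% in the arm beyond 2 Mb, a ratio of 1.21 ± 0.157. The combined list showed 18.4% in the first Mb, 3.25% in the next and 3.27% beyond. None of the 26 bins of 1 Mb beyond 2 Mb reached the coverage of the first bin in any of the 3 lists, whereas 7 of them exceeded the bin from 1 to 2 Mb in replicate 1 and 13 did so in replicate 2.

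**Figure D2:**
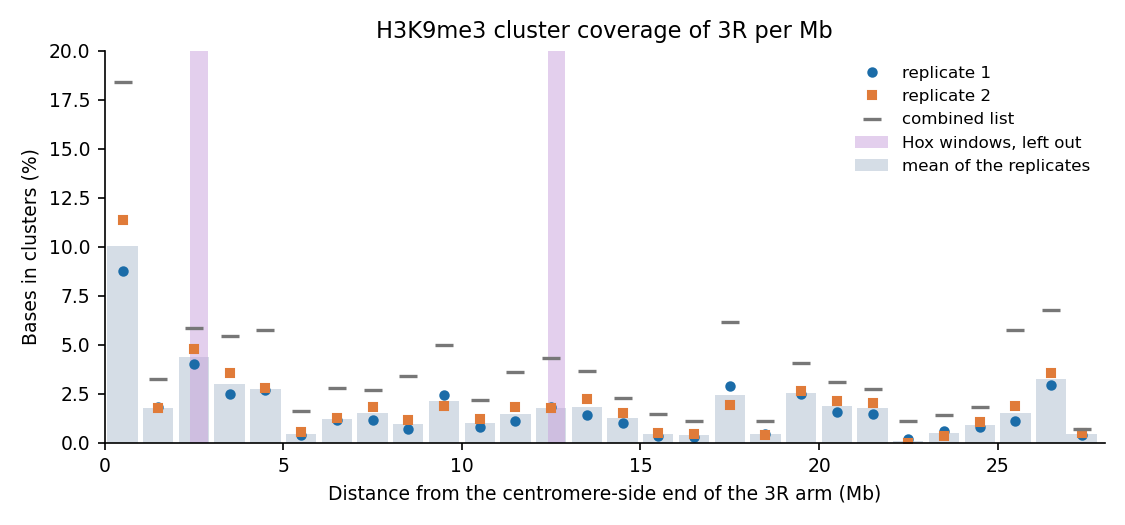
Percent of bases in clusters for each Mb of 3R (the last bin is shorter), by distance in Mb from the centromere-side end, with circles for replicate 1, squares for replicate 2, dashes for the combined list and bars for the mean of the replicates. Shaded strips mark the Hox windows, which are left out of numerator and denominator. The first bin stands at 8.78% and 11.3% in the replicates, and no later bin exceeds 4.76% in either.

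Within the first Mb the covered bases lay mainly in a pair of patches, which were singled out after their values were seen. The first patch is a single cluster that starts at base 1 of the arm, the widest member of each list. It ran to 23022 in replicate 1 with a score of 1.22, to 23049 in replicate 2 with a score of 1.39, and to 23182 in the combined list with a score of 1.30. Its inner edge was nearly the same in all 3 lists.

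The other patch lay from 637229 to 729051, the group of neighbouring combined clusters with the most covered bases on the arm. It held 11 clusters and 30.2 kb in replicate 1, 12 clusters and 38.1 kb in replicate 2, and 14 clusters and 69.5 kb in the combined list. Its median score was low, 0.696 in replicate 1 and 0.631 in replicate 2. One member at its distal side stood out, from 714234 to 717540 in replicate 1 with a score of 1.97 and from 714179 to 717575 in replicate 2 with a score of 2.21. Both patches together held 50.2% of the covered bases of the first 2 Mb in replicate 1 and 46.6% in replicate 2. Outside both patches the window still had 2.79% and 3.73% coverage in replicates 1 and 2, against 1.37% and 1.63% in the rest of the arm.

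In steps of 250 kb, the mean coverage of the replicates was 16.8% ± 3.28 in the first step and 5.02% ± 0.746 in the second. The third step, which holds the patch that starts at 637229, had 16.1% ± 3.02. The 5 steps from 0.75 to 2 Mb stayed between 0.293% and 3.61%. Coverage therefore did not fall evenly with distance from the centromere side.

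**Figure D3:**
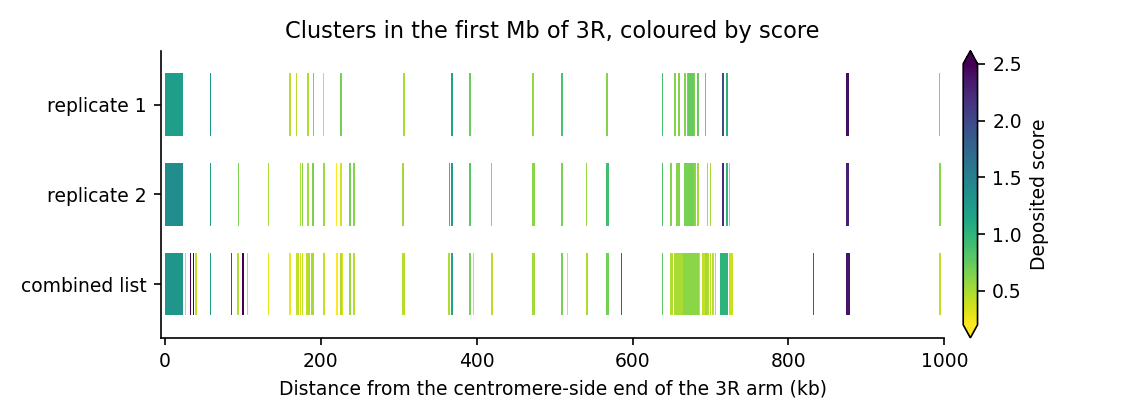
Clusters of the first Mb of 3R in replicate 1, replicate 2 and the combined list, by distance in kb from the centromere-side end, coloured by deposited score. The end cluster of 23 kb and the dense group from 637229 to 729051 recur in all 3 lists, and the combined list adds narrow clusters between them.

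Beyond 2 Mb, coverage per Mb ranged from 0.173% to 4.00% in replicate 1 with a median of 1.14%, and from 0% to 4.76% in replicate 2 with a median of 1.80%. The bins with the highest mean coverage after the first were the bin from 2 to 3 Mb without its ANT-C part (4.38% ± 0.537) and the bin from 26 to 27 Mb (3.26% ± 0.458). The lowest were the bin from 22 to 23 Mb (0.0864% ± 0.122), the bin from 16 to 17 Mb (0.376% ± 0.130) and the bin from 15 to 16 Mb (0.429% ± 0.0828). The replicates ranked the 26 bins alike, with a Spearman correlation of 0.925 across bins, which share libraries and are given as a description.

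Empty stretches were long. The longest with no cluster in any list ran from 21926734 to 22704620 (778 kb). The next ran from 15020099 to 15570002 (550 kb) and from 5907862 to 6356703 (449 kb). In replicate 1 alone the longest gap was 1103 kb, and in replicate 2 it was 1245 kb. Both of these began within 20 bp of each other, at 21862629 and 21862649.

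The median gap was shorter than the average distance between members. Random placement also gives that order, so the order alone does not show clumping. The size of the shortfall was not tested against random placement. A member fell every 143 kb of arm in replicate 1 and every 122 kb in replicate 2 on average, whereas the median gap between neighbours was 62.9 kb and 49.0 kb. In the first 2 Mb the median gaps were 34.1 and 22.6 kb, against 79.0 and 63.0 kb in the rest. There were 17 gaps of 1 kb or less in replicate 1 and 13 in replicate 2. Gaps of 10 kb or less made up 22.3% of gaps in replicate 1 and 22.8% in replicate 2. Joining clusters across such gaps gave 146 groups in replicate 1, of which 122 were single clusters, and 169 in replicate 2, of which 140 were single. No group beyond 2 Mb held more than 5 clusters in either replicate.

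Groups beyond 2 Mb recurred to different degrees. From 19114555 to 19125857 replicate 1 had 5 clusters over 10.1 kb, and replicate 2 covered 9.16 kb of the same span. From 4007929 to 4024861 replicate 1 had 4 clusters over 11.9 kb, and replicate 2 covered 10.4 kb. From 20906730 to 20923679 replicate 1 had 4 clusters over 8.73 kb, and replicate 2 covered 8.94 kb. From 17256575 to 17301983, however, a group of 11 combined clusters matched 6 clusters and 11.4 kb in replicate 1 but 1 cluster and 2.03 kb in replicate 2. From 25341631 to 25398997 a group of 13 combined clusters over 25.5 kb matched 2 clusters in each replicate, with 3.40 kb in replicate 1 and 3.67 kb in replicate 2.

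The agreement of the replicates was counted next. In replicate 1, 145 of the 187 members (77.5%, Wilson 95% interval 71.0 to 82.9%) shared at least 1 bp with replicate 2, against 90.5% of all clusters of replicate 1 in the genome. In replicate 2, 141 of the 218 members (64.7%, 58.1 to 70.7%) overlapped replicate 1, against 78.5% of all clusters of that list. The intervals treat clusters as independent and cover counting error only. Bases shared by both replicates were 346 kb of the 634 kb in either, a Jaccard index of 0.546. The shares were close in both windows, at 80.0% in the first 2 Mb and 77.0% in the rest for replicate 1, and at 62.8% and 65.1% for replicate 2. Other arms, without their centromere-proximal 2 Mb and distal 200 kb, were nearer to 3R than the genome was. In replicate 1 the shares were 79.3% on 2L, 79.4% on 3L and 87.9% on X. In replicate 2 they were 70.6% on 2L, 71.8% on 3L and 69.9% on X. Differences between arms were not tested.

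Members without a partner were narrower. Their median width was 1608.5 bp in replicate 1, against 2029 bp for members with a partner, and 1610 bp in replicate 2, against 2187 bp. The partnered share followed the score unevenly. In replicate 1 it was 9 of 9 members for scores below 0.4 and 68.6% from 0.4 to 0.6. It was 77.6% from 0.6 to 0.8, 91.7% from 0.8 to 1, 85.7% from 1 to 2 and 5 of 5 from 2 to 3. In replicate 2 it was 70.6% below 0.4, 48.9% from 0.4 to 0.6 and 75.4% from 0.6 to 0.8. It was 77.8% from 0.8 to 1, 94.7% from 1 to 2 and 5 of 7 from 2 to 3. At scores of 3 or more it was 2 of 6 members, and in replicate 1 it was 2 of 3.

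Where both replicates called a member, they placed it alike. Across 130 pairs that matched one to one, starts differed by a median of 132.5 bp and ends by 135.5 bp. Across all 145 pairs the Spearman correlation of scores was 0.812 and the Pearson correlation 0.977, which are descriptions across clusters from 2 libraries. The Spearman correlation of widths across these pairs was lower, at 0.623. Pairs were chosen for sharing at least 1 bp. Scores were higher in replicate 2 in 80 pairs and lower in 65, with a median difference of 0.0119.

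**Figure D4:**
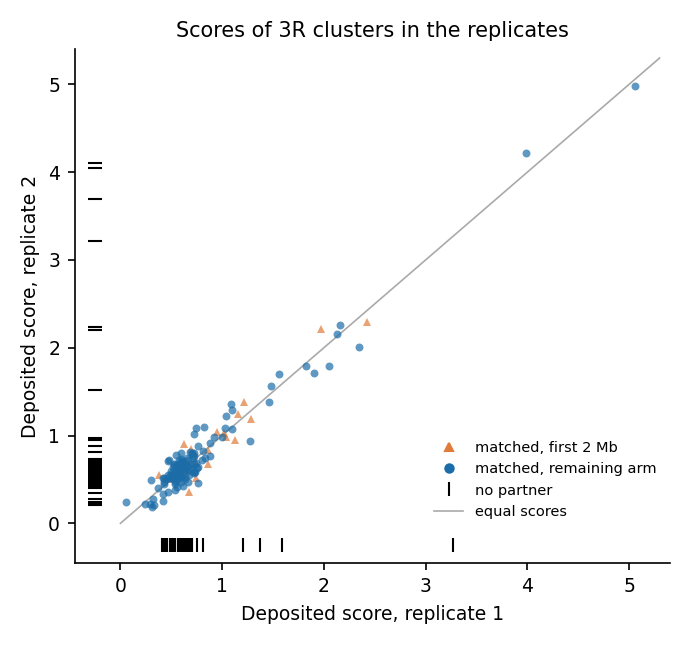
Deposited score in replicate 2 against replicate 1 for the 145 matched members, with triangles for the first 2 Mb, circles for the rest and a line of equal scores. Ticks along the axes are members without a partner. Matched members follow the line, and 5 unmatched members score above 3, 1 in replicate 1 and 4 in replicate 2.

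The strong members that both replicates share were taken as pairs with a score of 1.5 or more in each, a limit chosen after the values were seen. There were 11 pairs with 10 clusters of replicate 2, since 2 neighbouring clusters of replicate 1 near 2 Mb shared a partner. Of the 11 pairs, 9 lay in the first 5 Mb of the arm. The other 2 lay beyond 26 Mb, so that 22.2 Mb between 4736442 and 26899728 held no such pair at this limit. Pairs just under it lay in that stretch, from 21220876 to 21227240 in replicate 1 (score 1.48; 1.57 in replicate 2) and from 13965655 to 13968448 (score 1.46; 1.38 in replicate 2). Members above the limit that had no partner also lay in that stretch. They included 7667097 to 7668947 in replicate 1 (score 3.27) and, close to it without a shared base, 7669675 to 7671518 in replicate 2 (score 2.24). Others in replicate 2 were 15570071 to 15571535 (score 3.69) and 26148497 to 26150492 (score 4.10). Which genes lie at these pairs and members was not examined.

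The highest-scoring member in both replicates lay from 3533294 to 3535317 in replicate 1 with a score of 5.06 and from 3533188 to 3535700 in replicate 2 with a score of 4.98. Only 3.71 kb before it in replicate 1, a wider member ran from 3520960 to 3529583 with a score of 2.15. Its partner in replicate 2 ran from 3521703 to 3529567 with a score of 2.26. This neighbourhood thus held a wide member of moderate score beside a narrow one of the highest score, in both replicates.

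Both shared strong members beyond 26 Mb lay 334 kb apart, with weaker members between them in each replicate. A wide member ran from 26899728 to 26907496 in replicate 1 (score 2.13) and from 26899721 to 26908067 in replicate 2 (score 2.15). The narrow one ran from 27241493 to 27242993 in replicate 1 (score 3.98) and from 27241373 to 27243376 in replicate 2 (score 4.22). This narrow cluster was the last member before the distal limit in both replicates.

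Other shared strong members were a cluster from 873441 to 877538 in replicate 1 (score 2.43; 2.30 in replicate 2) and a cluster from 4732975 to 4736442 (score 2.34; 2.01 in replicate 2). A pair just past the 2 Mb limit ran from 2000688 to 2005150 and from 2005428 to 2008279 in replicate 1, with scores of 1.83 and 2.05. Replicate 2 called it as 1 cluster from 2000562 to 2008348 with a score of 1.79. Another ran from 2132063 to 2135618 in replicate 1 (score 1.91; 1.72 in replicate 2). A cluster from 2905508 to 2908581 in replicate 1 (score 1.56; 1.70 in replicate 2) was the first member past the right limit of the ANT-C window. The nearest cluster inside that window, from 2866467 to 2867896 in replicate 1, scored 0.598.

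At the other limits the neighbours were as follows. The last replicate 1 member before 2 Mb ran from 1853379 to 1854841 (score 0.570), and the last before the ANT-C window from 2174607 to 2176653 (score 0.563), with the first cluster inside it from 2497122 to 2499314 (score 0.724). Around the BX-C window replicate 1 had a member from 12245968 to 12247571 (score 0.815) before it and one from 13490365 to 13492602 (score 0.720) after it. The nearest clusters inside that window ran from 12526992 to 12528842 (score 0.623) and from 12795741 to 12797255 (score 0.571). Past the distal limit the nearest ran from 27894633 to 27898450 (score 0.826). Only the 2 Mb limit lay within 5 kb of a strong member, and moving it is described in the closing section.

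The combined list draws on the libraries already described and so gives no independent check of them. Of its 431 members, 129 (29.9%) overlapped both replicates, against 48.7% of all combined clusters in the genome. Another 190 (44.1%) overlapped neither, against 31.2% in the genome. The other members overlapped 1 replicate, 35 replicate 1 and 77 replicate 2. Most replicate bases were in the combined list, at 98.1% for replicate 1 and 98.9% for replicate 2, whereas 42.6% and 51.7% of combined bases were in replicate 1 and in replicate 2.

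Combined members that overlapped neither replicate were narrow, with a median width of 1327 bp against 2578 bp for those that overlapped both. Of the 190, 91 were narrower than 1301 bp, the narrowest width in either replicate list, while the combined list goes down to 1001 bp. With clusters under 1500 bp removed from the combined list and from both replicate lists, 35.6% of combined members overlapped no remaining replicate cluster. Agreement peaked at middle scores: 84.1% of combined members with scores from 0.6 to 1 overlapped both replicates, against 10.7% below 0.4 and 10.5% at 3 or more. Of the 19 combined members at 3 or more, 14 overlapped neither replicate.

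The 10 widest combined members were between 8327 and 23182 bp, and all 10 overlapped both replicates. Replicates covered over 50 percent of the bases in 8 of them. After the end cluster came 665196 to 685361 (20.2 kb, score 0.596), 4007440 to 4025268 (17.8 kb, score 0.637) and 19023539 to 19036043 (12.5 kb, score 0.771). The last was called as 1 cluster of 10446 bp in replicate 1, the widest of that list after the end cluster. Of the 10, 4 lay in the first 2 Mb.

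The 10 highest-scoring combined members were between 1411 and 3325 bp, with scores from 3.60 to 5.05, and 1 lay in the first 2 Mb. Only 2 overlapped both replicates, those at 3533171 to 3535700 (score 4.40) and 27241169 to 27243488 (score 5.05). Another 3 overlapped 1 replicate. From 26148360 to 26150492 (score 4.66) replicate 2 alone had a cluster, and from 3869799 to 3872541 (score 3.83) likewise. From 7666961 to 7669208 (score 3.83) replicate 1 alone had one. The other 5 had none in either replicate, among them 3176860 to 3178860 (score 4.24) and 6784692 to 6787715 (score 3.91). The same score, 3.83, occurred in 4 of the 10. High scores in this list thus mostly belonged to clusters that at most 1 replicate had called.

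The arm beyond 2 Mb was then compared with 2L, 3L and X, each without its centromere-proximal 2 Mb and distal 200 kb. The Hox windows were left out of 3R, whereas nothing like them was left out of the other arms. Clusters covered 6.22% and 5.91% of those windows in replicates 1 and 2 and 22.4% in the combined list. Leaving them out thus lowers 3R, and the ratios with them kept in were not computed. Coverage of 3R was the lowest, 1.37% and 1.63% in replicates 1 and 2. On 3L it was 1.96% and 2.32%, on 2L 2.77% and 3.10%, and on X 6.91% and 8.90%. The ratio was 0.702 ± 0.00188 to 3L, 0.511 ± 0.0229 to 2L and 0.191 ± 0.0105 to X. In both replicates 3R was lower than each of these arms, with an exact permutation p of 0.333 for each, the smallest possible. The ratio to 3L depended on the choices made. It was 0.352 with proximal windows of 1 Mb, and it turned to 1.11 where the median score of each whole list was the floor, which left 11 and 18 members in replicates 1 and 2. With that floor the ratio to 2L was 0.309 and that to X 0.371, and clusters of score 1 or more gave 0.273 and 0.110.

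Clusters were fewer on 3R, again without its Hox windows, than on each of the other arms. Beside 2L and X they were also narrower on average. Clusters numbered 6.15 and 7.08 per Mb on 3R, against 8.91 and 9.53 on 3L, 9.75 and 10.3 on 2L, and 26.2 and 31.1 on X. Median widths of 1922.5 and 1967 bp on 3R were 0.983 ± 0.00588 times those of 3L, 0.964 ± 0.00907 times those of 2L and 0.920 ± 0.0223 times those of X. Mean widths of 2228 and 2306 bp were 0.776 ± 0.0137 times those of 2L and 0.825 ± 0.0286 times those of X, and 0.980 ± 0.0479 times those of 3L with overlapping values. Median scores on 3R lay below those of the other arms, at 0.614 and 0.595 in replicates 1 and 2. Those of the other arms were 0.661 and 0.641 on 3L, 0.643 and 0.622 on 2L, and 0.749 and 0.758 on X. The share of clusters with a score of 2 or more was instead the highest on 3R, at 4.61% and 6.29%. That share was 3.94% and 4.21% on 2L, 2.01% and 3.76% on 3L, and 2.64% and 3.03% on X. On 3R it stood for 7 and 11 clusters, and differences between arms were not tested.

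Among clusters with scores of 1 or more, 3R stood at 0.797 ± 0.0640 of 3L with overlapping values, at 0.273 ± 0.0193 of 2L and at 0.110 ± 0.00796 of X. These covered 0.284% and 0.353% of 3R beyond 2 Mb, against 0.337% and 0.469% of 3L, 1.10% and 1.23% of 2L, and 2.46% and 3.38% of X. Replicate agreement on 3R was the lowest by bases, with a Jaccard index of 0.526 against 0.566 on 3L, 0.636 on 2L and 0.603 on X. In the combined list 45.9% of 3R clusters overlapped neither replicate, against 37.4% on 3L, 41.7% on 2L and 32.6% on X. Differences between arms in these shares were not tested.

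**Figure D5:**
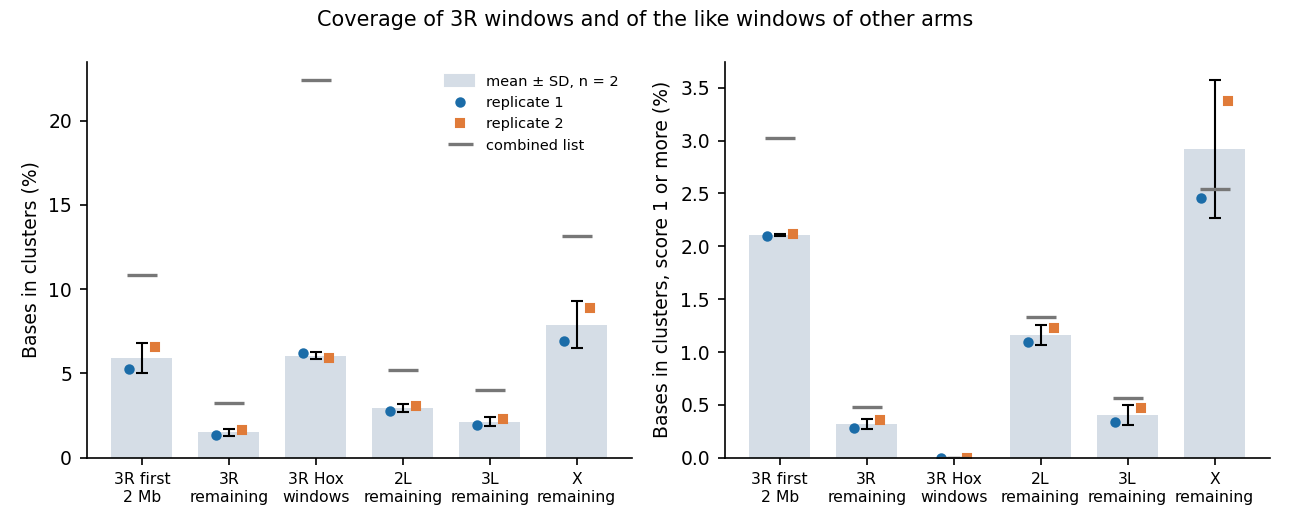
Percent of bases in all clusters (left) and in clusters with a score of 1 or more (right) for the first 2 Mb of 3R, the rest of 3R, its Hox windows and the like windows of 2L, 3L and X. Bars are means and error bars SDs of the 2 replicates, drawn as circles and squares, and dashes are the combined list. The rest of 3R is the lowest window on the left, at 1.37% and 1.63% in the replicates, and the Hox windows are at 0 on the right.

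The Hox windows, which interrupt the arm, were denser in clusters than the arm as a whole and lacked high scores. Members covered 1.66% and 2.00% of the arm in replicates 1 and 2, against 6.22% and 5.91% of the 1 Mb in the Hox windows, and 15.5% and 14.7% of members scored 1 or more, against 0 of 33 and 0 of 29 clusters there. The ratio of coverage was 0.303 ± 0.0505, and 0.171 in the combined list, at 3.83% for members against 22.4% in the Hox windows. The first 2 Mb, at 5.29% and 6.57% in replicates 1 and 2, overlapped the Hox windows in coverage, and the first Mb, at 8.78% and 11.3%, lay above them. In the combined list both lay below the Hox windows, at 10.8% in the first 2 Mb and 18.4% in the first Mb. The highest scores in the Hox windows were 0.780 in replicate 1 and 0.828 in replicate 2. Median scores were alike, 0.628 and 0.608 for members in replicates 1 and 2 against 0.615 and 0.621 in the Hox windows, with overlapping values.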

How the data were processed

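Nuclear chromatin of wild-type larvae was analysed by ChIP-seq for H3K9me3. The authors deposited lists of enriched clusters, 1 per ChIP replicate and 1 for the replicate set, and each cluster has a deposited score, of which the file headers name no scale. The file headers give FlyBase release 5 as the build. Bowtie 0.12.7 is listed in the submitters' processing notes, with no role given. The sources used here do not name the caller, its thresholds, the handling of repeats or the way the joint list was made.

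Members were assigned by midpoint, and coverage is the bases of members over 26.7 Mb. A shared base made an overlap, and groups joined clusters across gaps of at most 10 kb. Shares of clusters have Wilson 95% intervals. Windows and arms were compared over the replicates by exact permutation tests and by exact sign flips of within-replicate differences. The interval code was checked on simulated lists against a count base by base. Named regions were the 10 widest and 10 highest-scoring combined members, the extreme bins, the longest empty stretches, the neighbours of each limit and the 5 groups with the most bases. Members, windows and rules were chosen with earlier results of these data known. The gene table at hand is on release 6, so genes were not placed on the clusters, and no genome sequence was used. Python 3.11.15, numpy 2.4.6, pandas 2.3.3, scipy 1.17.1 and matplotlib 3.10.9 were used.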

Additional observations from a re-analysis of the deposited data

How the results depend on the processing

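Values here are means of the replicates unless said otherwise, and the cause of each shift was not tested. Of 95 alternatives other than leaving out a replicate, 74 were read against the SD of the replicates, of which 25 moved a value by less, 48 by more, and 1 turned a direction. Shares of clusters were read against their Wilson interval (5 inside, 7 outside) and the number of groups against a 1.5-fold change (3 inside, 2 outside). The other 4, for the Jaccard index and the score correlation, have no spread to be read against. Leaving out either replicate (30 alternatives) gave the other's value, which by construction lies within that spread. With the combined list, coverage was 3.83%, density 16.1 clusters per Mb, median width 1901 bp, median score 0.447, groups 250 and median gap 18.2 kb. Coverage of the first 2 Mb was then 10.8% and of the rest 3.27% (difference 7.56 points), the density ratio 2.35, the width ratio 1.10 and the score difference 0.0270, and the ratios of 3R to 2L, 3L and X were 0.631, 0.808 and 0.248. With the median score of each whole list as floor, 11 and 18 members were left in replicates 1 and 2: coverage was 0.203%, density 0.543 per Mb, median width 3113 bp, groups 13 and median gap 429 kb. The first 2 Mb then had 0.374% and the rest 0.190% (difference 0.184 points), with a density ratio of 2.14. The Jaccard index was 0.596, and 90.9% of replicate 1 and 50 percent of replicate 2 members overlapped the other replicate. This floor was 1.75 and 1.43 for replicates 1 and 2 but only 0.587 for the combined list, which kept 107 members. Partners had to pass the floor of their own list. So few replicate members could overlap only a small part of the 107, whatever the agreement. The shares of combined members that overlapped both (8.41%) and neither (82.2%) therefore do not measure agreement. The replicate shares of 90.9% and 50 percent also depend on the unlike floors. Replicate 2 clusters scoring 1.70 and 1.57 stayed in, while their replicate 1 partners, at 1.56 and 1.48, fell under the higher floor. The ratio of 3R to 2L was 0.309 and to X 0.371, and that to 3L reversed, at 1.11. A floor of 1 on the score, added after seeing the data, gave coverage of 0.452%, 1.14 clusters per Mb, 2.11% in the first 2 Mb and 0.318% in the rest (difference 1.79 points), a density ratio of 4.08 and ratios of 0.273, 0.797 and 0.110 to 2L, 3L and X. Clusters of at least 1500 bp gave 6.42 per Mb, a median width of 2043 bp, a density ratio of 3.09, a Jaccard index of 0.568, a score correlation of 0.812 as before, a ratio to 3L of 0.710, and 38.3% and 35.6% of combined members in both and neither. A window of 1 Mb in place of 2 Mb gave 10.1% in the window, a difference of 8.55 points, a density ratio of 4.71 and ratios to 2L and 3L of 0.445 and 0.352, and a window of 3 Mb gave ratios to 2L and 3L of 0.609 and 0.669. Without the cluster at base 1, an alternative also added later, the first 2 Mb had 4.78% and the difference was 3.28 points. Keeping the Hox windows gave 8.43 clusters per Mb and a median width of 1930 bp. The ratios of 3R to other arms were not computed with them kept. Requiring an overlap of 50 percent of both clusters gave a score correlation of 0.830 and 49.2% of combined members in neither replicate.

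No paired analysis was possible because no input list was analysed, so groups of samples with shared numbers could not be compared. Windows and arms were compared within each library, and the differences and ratios given are those within-replicate values. With 2 libraries of unknown depth, differences between windows rest on direction in both replicates and on their size beside the SD.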

Other observations

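The combined list also holds 3 regions that the authors called depleted, and 1 of them lies on 3R, from 25597276 to 25599054 (1779 bp, score -0.0131). Both replicates called the same stretch enriched, from 25597305 to 25599044 in replicate 1 (score 0.0555) and from 25597684 to 25599023 in replicate 2 (score 0.240), each with a low score. The Mb around it differed between lists in another way, since the combined list had 31 clusters from 25 to 26 Mb, the most of any 1 Mb bin beyond 2 Mb, against 6 in replicate 1 and 10 in replicate 2.

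Scores equal to within 1e-06 occurred among high scores of the combined list. The scores 3.83, 3.47 and 3.24 were each held by 4 members of 3R. All 4 members at 3.47 and all 4 at 3.24 overlapped neither replicate, and their widths were between 1001 and 1096 bp.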
